A study of Mus musculus with 4 samples.

Results

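Granulocytic-monocytic progenitors (GMP) sorted from the bone marrow of 1 *Tet2* KO mouse were compared with GMP sorted from 1 wild-type (WT) mouse across all genes. The cells were those that the deposited table of cells assigns to the libraries of the GMP sort, 1258 WT and 2719 *Tet2* KO cells, so 3977 of the 8969 cells of the 4 scRNA-seq libraries. The other 4992 cells came from Lin- progenitors and CD11b+ cells that were sorted jointly, called the Lin-/CD11b+ sort, again with 1 library per genotype. With 1 library per genotype there was no replicate, no test between genotypes was made, and every difference given here is a difference between 2 libraries.

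*Tet2* KO mice carried Mx1-Cre and Tet2 fl/fl alleles. The WT mice were Tet2 fl/fl littermates without Cre, so the floxed alleles were shared by both groups. The study used young adults of both sexes. Both groups received polyinosinic-polycytidylic acid (pI:pC), a double-stranded RNA analogue that induces interferon, in 4 doses of 12.5 ug/g. The Mx1 promoter responds to interferon and is not restricted to blood cells, so the deletion is not confined to GMP or to the blood system. The table of cells gives 1 mouse for each genotype, and the same mice supplied both sorts, so the Lin-/CD11b+ sort adds other cells of these mice and no further mouse. GMP were gated as Lin- cKit+ Sca1- CD34+ CD16/32+ cells.

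Tet2 is a dioxygenase that oxidizes 5-methylcytosine in DNA and is among the genes most often mutated in clonal haematopoiesis. GMP are bone marrow progenitors that give rise to neutrophils and monocytes, and a GMP gate also holds early precursors of basophils, mast cells, eosinophils and dendritic cells. They make the enzymes of primary granules in large amounts, while the proteins of secondary granules appear only later, in more mature neutrophil precursors.

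The WT GMP library held 22890469 unique molecular identifiers (UMIs, each marking 1 captured RNA molecule) and the *Tet2* KO GMP library 42561110. The median cell had 18713 UMIs in WT and 15488 in *Tet2* KO GMP. UMIs were summed over the cells of a library and given as CPM, a gene's UMIs relative to all UMIs of its library, on which 1 UMI was worth 0.0437 CPM in WT and 0.0235 CPM in *Tet2* KO GMP. All intervals are 95% intervals that cover counting error only. Because cells of the WT library were deeper, shares of cells with a UMI were taken after every cell was thinned at random to 5000 UMIs, which left no cell out, as the shallowest cell had 5003. The median share of mitochondrial UMIs was 2.45% in WT and 2.44% in *Tet2* KO GMP. The number of cells that the study lists for the *Tet2* KO GMP library and for the WT Lin-/CD11b+ library is the reverse of the deposited assignment, which was used here. Barcode, UMI total and gene number agreed between the counts and the table of cells in 8969 of 8969 cells, which does not bear on the names of the libraries, whereas levels of lymphoid markers do. Summed over all 10, B-cell markers were at 152 CPM in WT GMP, at 152 CPM in *Tet2* KO GMP and at 54625 CPM in the WT Lin-/CD11b+ library, and the 5 plasma-cell markers were at 6.12, 2.37 and 20704 CPM. Only 6 cell barcodes were shared between the 2 GMP libraries.

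The genes of the gate were at similar levels in both libraries. *Kit*, the receptor for stem cell factor, was at 30.4 CPM in WT and 29.2 CPM in *Tet2* KO GMP. *Fcgr3* and *Fcgr2b*, which encode CD16 and CD32, were at 153 and 143 CPM and at 50.9 and 46.0 CPM. *Cd34* was lower in *Tet2* KO GMP, at 72.9 against 104 CPM, and was detected in 26.4% against 34.7% of cells. *Ly6a*, which encodes the excluded antigen Sca1, was at 3.06 and 4.30 CPM. *Tet2* itself was at 13.02 CPM in WT and 17.0 CPM in *Tet2* KO GMP, a log2 ratio of 0.38 (0.19 to 0.58). These UMIs tag the 3′ end of transcripts and need not come from the deleted part, so they do not check the deletion. *Xist*, transcribed from the inactive X chromosome, was at 1029 and 1058 CPM and had a UMI in 97.5% of WT and 98.4% of *Tet2* KO cells. Nearly all cells of both libraries thus held RNA of an inactive X chromosome, as in female mice. Of the 9 T- and NK-cell markers, 5 had no UMI in either GMP library, and 98.4% of WT and 98.3% of *Tet2* KO cells had no UMI of a plasma-cell marker at 5000 UMIs. For the 10 B-cell markers only 54.8% and 52.4% of cells had none, and at least 2 of these markers were detected in 5.72% and 8.28% of cells. No cell type that lacks the genes described here was defined within the GMP sort, so the part of free RNA in low shares of cells was not tested.

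Most genes had nearly the same level in *Tet2* KO and WT GMP. Among 7882 genes with a mean of at least 5 CPM over the 2 libraries, 58 were at least 1.5-fold higher in *Tet2* KO GMP (0.736%) and 133 at least 1.5-fold lower (1.69%). At 2-fold there were 13 and 41. The counting interval of the ratio lay on 1 side of 0 on the log2 scale for all 58 and all 133 genes. The genes were chosen by that ratio, and the median half-width of the interval over all tested genes was 0.16. This outcome was therefore close to fixed by the choice and adds no evidence. The distribution was narrow, with a median log2 ratio of -0.04, a 25th percentile of -0.16 and a 75th percentile of 0.08. The genes nearest to the 1.5-fold limit were *Cdkn3* inside it (0.60) and *S100a6* outside it (0.57) on the higher side, and *Utrn* inside (-0.585) and *Sesn1* outside (-0.584) on the lower side. The genes that stood furthest from the diagonal on the plot of the 2 libraries were *Rpgrip1* on one side and *Ctse*, *Gm47283*, *Camp* and *Ngp* on the other.

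**Figure D1:**
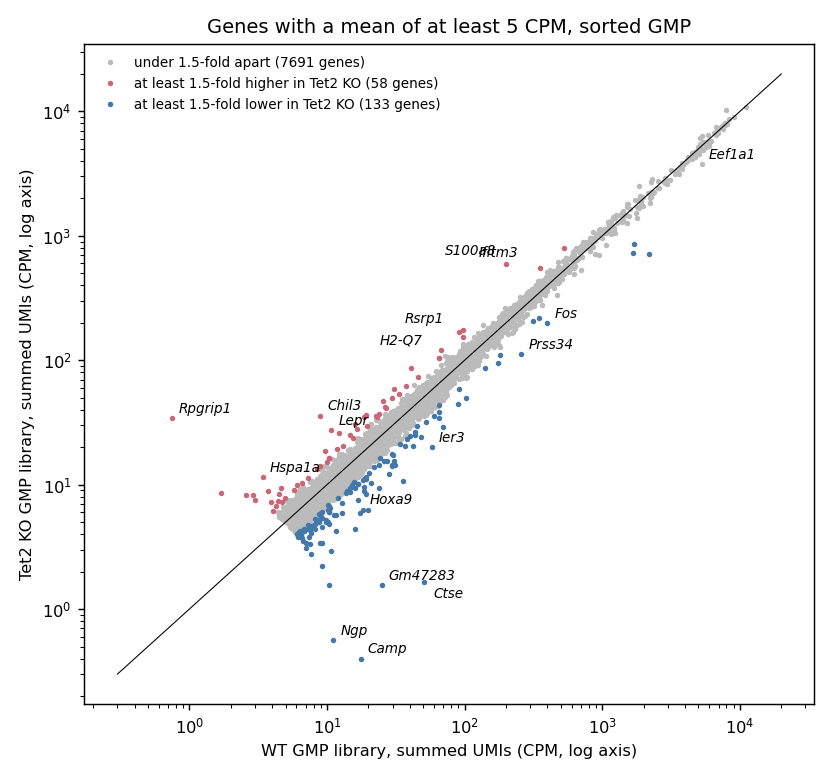
Summed UMIs of 7882 genes in the WT (x axis) and *Tet2* KO (y axis) GMP libraries, in CPM on log axes, 1 point per gene, with the line of equal levels. The 58 genes at least 1.5-fold higher and the 133 at least 1.5-fold lower in *Tet2* KO are coloured, and 1 library stands behind each axis.

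A group of 3 genes was close to absent in 1 of the 2 libraries and present in many cells of the other. *Ctse*, on chromosome 1 (131638306 to 131675505, plus strand, GRCm38), encodes the aspartic protease cathepsin E. It had 1160 UMIs (50.7 CPM) in WT and 70 UMIs (1.64 CPM) in *Tet2* KO GMP, a log2 ratio of -4.95 (-5.31 to -4.60), and was detected in 24.2% of WT and 1.03% of *Tet2* KO cells. It was low to the same degree in each class of cells described below, with log2 ratios between -5.20 and -4.88, and was the member that stood apart among 20 lysosomal genes, of which the others lay within 1.5-fold. *Gm47283*, which the GENCODE M21 annotation places on chromosome Y (90784738 to 90816464, plus strand), was at 24.9 CPM in WT and 1.55 CPM in *Tet2* KO GMP (-4.01, -4.40 to -3.64). *Xist* was at similar levels in both libraries, so this ratio was not read as a difference in sex. *Rpgrip1*, on chromosome 14 (52110704 to 52163546, plus strand), encodes a protein of the photoreceptor connecting cilium. It went the other way, with 17 UMIs (0.74 CPM) in WT and 1463 UMIs (34.4 CPM) in *Tet2* KO GMP, a log2 ratio of 5.53 (4.85 to 6.32), and with detection in 0.40% and 13.6% of cells. All 3 differences were also present in the Lin-/CD11b+ sort of the same mice, at -3.62, -3.65 and 3.01.

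Further down the ranking, genes with lower levels in *Tet2* KO GMP included *Ctla2a*, a cysteine protease inhibitor (35.6 against 10.7 CPM in WT and *Tet2* KO, -1.73), *Wdfy1*, an adaptor of Toll-like receptor signalling (19.96 against 6.30 CPM, -1.66) and *Rgs1*, a regulator of G-protein signalling (17.3 against 5.87 CPM, -1.55). On the higher side stood *Lepr*, the leptin receptor (10.7 against 27.3 CPM, 1.34), *Clec4a2*, a C-type lectin receptor (40.9 against 86.7 CPM, 1.08), *Id1*, an inhibitor of basic helix-loop-helix factors (9.61 against 18.8 CPM, 0.97), *Gng11*, a G-protein subunit (16.0 against 30.6 CPM, 0.93), complement component *C3* (19.2 against 36.4 CPM, 0.92) and *Rsrp1*, a gene of an arginine- and serine-rich protein (91.3 against 169 CPM, 0.89). *Clec4a2* was detected in 13.9% of WT and 28.2% of *Tet2* KO cells, and *Rsrp1* in 37.2% and 56.6%.

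Immediate early genes were the list with the most members past the limit, though not with the lowest median. They are genes that cells transcribe within minutes of a stimulus, and they include the AP-1 subunits of the Fos and Jun families. Of 20 listed genes 15 passed the level filter, and 8 of these were at least 1.5-fold lower in *Tet2* KO GMP, 1 was higher and 6 lay between. Over all genes, 1.69% were lower and 0.736% higher by that fold. The list median was -0.64, against -0.04 for all genes. The 8 genes were *Ier3*, *Egr1*, *Fos*, *Dusp1*, *Zfp36*, *Ier2*, *Klf6* and *Junb*. *Fos* was at 398 CPM in WT and 198 CPM in *Tet2* KO GMP, a log2 ratio of -1.01 (-1.05 to -0.97), and was detected in 68.9% and 48.1% of cells. *Ier3*, an early response gene linked to cell survival, had the lowest ratio, at 57.8 and 19.9 CPM (-1.53, -1.66 to -1.41). *Egr1*, a zinc finger factor, was at 28.1 and 12.2 CPM (-1.21), and *Dusp1*, a phosphatase that inactivates MAP kinases, at 64.6 and 34.5 CPM (-0.91). *Zfp36*, whose product destabilizes cytokine mRNA, was at 59.5 and 35.4 CPM (-0.75). *Ier2* was at 181 and 111 CPM (-0.71), *Klf6* at 52.3 and 32.2 CPM (-0.70) and *Junb* at 91.6 and 58.7 CPM (-0.64). *Fosb* (-0.57), *Btg2* (-0.56) and *Jun* (-0.38, 363 against 279 CPM) were lower by less than 1.5-fold, and *Fosl2* was at 7.82 and 8.06 CPM.

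The exception was the heat shock gene *Hspa1a*, at 3.41 CPM in WT and 11.5 CPM in *Tet2* KO GMP, a log2 ratio of 1.75 (1.40 to 2.11). It rested on few cells, as it was detected in 1.35% and 3.86% of them. Of 19 genes on a separate list of chaperones 0 were at least 1.5-fold apart, with a median of 0.02. Over all genes 0.736% were higher and 1.69% lower by that fold.

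The UMIs of the list per cell were fewer in *Tet2* KO GMP at the median and at the upper end. At 5000 UMIs per cell the median cell held 6 UMIs of the 20 genes in WT and 4 in *Tet2* KO GMP, the 90th percentile was 17 and 10, and cells with at least 10 such UMIs made up 30.8% and 11.7%. Within cells with *Ly86* and no *Cebpe* UMI the list median was -0.75, within cells with neither it was -0.71, and within cells with *Cebpe* and no *Ly86* UMI it was -0.45. At least 2 markers of another cell type were carried by 790 of 1258 WT and 1452 of 2719 *Tet2* KO cells. Without these cells the list median was -0.23, and the ratios were -0.74 for *Fos*, -0.67 for *Egr1* and -0.53 for *Dusp1*. Markers were counted in all UMIs of a cell, so the deeper WT cells met this limit more easily. Some markers, such as *Gata2* and *Flt3*, are also progenitor genes, so the cells left out need not be of another type. In the Lin-/CD11b+ sort 4 of 16 genes were at least 1.5-fold lower and 1 was higher (median -0.27). Over all genes of that sort the shares were 1.14% and 3.12%.

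The promoters of *Fos* and *Dusp1* are shown because both genes were at least 1.5-fold lower and are known to respond to cAMP and other stimuli through CREB sites. The letters TGACG, a partial cAMP response element, are in capitals where they occur on either strand (RefSeq promoters on GRCm38.p6, 250 bases before to 50 bases after the start of the gene, given 5′ to 3′ in the direction of the gene). *Fos* is at chr12:85473640-85473939 on the plus strand and *Dusp1* at chr17:26508423-26508722 on the minus strand.
Fos: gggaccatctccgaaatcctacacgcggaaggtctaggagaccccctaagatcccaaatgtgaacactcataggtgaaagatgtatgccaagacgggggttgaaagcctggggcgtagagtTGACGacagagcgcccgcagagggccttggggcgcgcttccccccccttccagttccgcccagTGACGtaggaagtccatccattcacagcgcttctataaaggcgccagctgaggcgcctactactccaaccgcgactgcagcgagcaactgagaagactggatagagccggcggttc
Dusp1: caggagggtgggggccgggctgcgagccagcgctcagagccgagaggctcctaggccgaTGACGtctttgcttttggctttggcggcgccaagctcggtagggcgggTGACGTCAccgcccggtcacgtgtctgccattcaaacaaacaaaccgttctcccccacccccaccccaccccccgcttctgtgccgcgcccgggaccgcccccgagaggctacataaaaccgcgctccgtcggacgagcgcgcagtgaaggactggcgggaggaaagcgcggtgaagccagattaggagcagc
TGACG begins 129 and 66 bases before the start in *Fos*. In *Dusp1* it begins 191 bases before the start, and the run TGACGTCA, in which a copy on each strand overlaps, begins 143 bases before it. Of the 17 listed genes with a promoter in the table, 9 held TGACG in at least 1 promoter and 2, *Dusp1* and *Btg2*, held TGACGTCA. Among all 32851 promoters of the table, which belong to 27025 genes, the shares were 20.8% and 1.79%. These are shares of promoters and not of genes, so the 2 are not in the same unit. Of the listed genes at least 1.5-fold lower, only *Fos*, *Dusp1* and *Junb* were among the 9. *Ier3* and *Egr1*, which had the lowest ratios, were not. The motifs are matches of letters, and no binding was measured here.

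**Figure D2:**
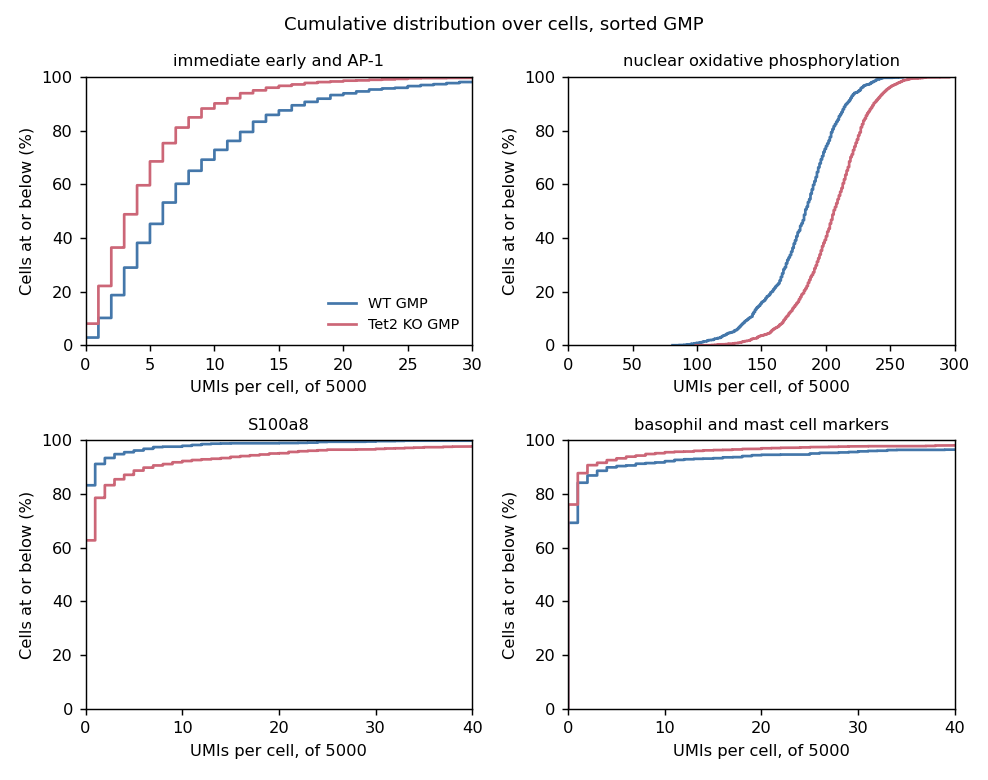
Cumulative share of cells (y axis, %) by the number of UMIs per cell after thinning to 5000 UMIs (x axis), for the immediate early list, nuclear genes of oxidative phosphorylation, *S100a8* and the basophil and mast cell markers, in 1258 WT and 2719 *Tet2* KO GMP. The *Tet2* KO curve lies to the left for immediate early genes (medians of 6 and 4 UMIs in WT and KO) and to the right for oxidative phosphorylation (184 and 206 UMIs), and *S100a8* is at 0 in 83.3% of WT and 62.8% of *Tet2* KO cells.

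Genes of the Hoxa cluster and its partners, which keep progenitors in an immature state, were lower in *Tet2* KO GMP. Of 13 genes found in the files only 4 passed the level filter, and 3 of these were at least 1.5-fold lower, against 1.69% of all genes. *Hoxa9* and *Hoxa7*, neighbours on chromosome 6 (52223100 to 52231089 and 52214491 to 52221854, both on the minus strand), were at 18.2 and 6.30 CPM (-1.53, -1.76 to -1.31) and at 23.7 and 9.42 CPM (-1.33, -1.52 to -1.14) in WT and *Tet2* KO. They were detected in 7.71% and 3.13%, and in 10.6% and 4.49% of cells. *Meis1*, a cofactor of Hox proteins, was at 10.4 and 6.01 CPM (-0.79). The ratios of *Hoxa9* and *Hoxa7* were between -1.78 and -1.21 in each of the 3 classes of cells. Below the level filter, *Hoxa5* had 48 UMIs in WT and 21 in the deeper *Tet2* KO library, and *Hoxa10* had 20 and 0. In the Lin-/CD11b+ sort the ratios were -0.68 for *Hoxa9*, -0.79 for *Hoxa7* and 0.53 for *Meis1*.

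All 13 tested genes on a list of stem cell and early progenitor genes had a log2 ratio under 0, with a median of -0.40. The median of all genes was -0.04, so most genes also had a ratio under 0. Of the 13 genes 4 were at least 1.5-fold lower, against 1.69% of all genes. These were *Gata2*, a factor of stem cells and of mast cells and basophils (19.1 against 8.46 CPM, -1.17), *Flt3*, a receptor of lymphoid and dendritic progenitors (8.13 against 4.37 CPM, -0.89), *Txnip*, a regulator of glucose uptake (27.3 against 15.6 CPM, -0.81) and *Tal1*, a factor of stem cells and the erythroid line (6.82 against 4.42 CPM, -0.63). *Sox4* was at 48.5 and 40.4 CPM (-0.26) and *Runx1* at 49.0 and 40.3 CPM (-0.28). *Gata2* is also among the basophil and mast cell markers. *Tal1* had a ratio of 0.46 within *Ly86*-only cells. In the Lin-/CD11b+ sort the list had a median of 0.18, on the other side of 0, with 1 of 14 genes at least 1.5-fold higher and 0 lower. Without the GMP that carried at least 2 basophil and mast cell markers the median was -0.21.

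Of 6 basophil and mast cell markers 5 were at least 1.5-fold lower in *Tet2* KO GMP, against 1.69% of all genes. The median was -1.08, and the summed level was 853 CPM in WT and 476 CPM in *Tet2* KO GMP. *Prss34*, a basophil serine protease, was at 259 and 111 CPM (-1.22, -1.27 to -1.16), and *Mcpt8*, another basophil protease, at 349 and 219 CPM (-0.67, -0.72 to -0.63). *Fcer1a* and *Ms4a2*, the alpha and beta chains of the high-affinity IgE receptor, were at 69.5 and 28.9 CPM (-1.27) and at 30.8 and 15.5 CPM (-0.99). *Cpa3*, a mast cell carboxypeptidase, was at 126 and 92.4 CPM (-0.45). At 5000 UMIs, at least 2 of the 6 genes were detected in 11.4% of WT cells (exact binomial interval 9.67% to 13.3%) and in 7.69% of *Tet2* KO cells (6.71% to 8.75%). The RNA was concentrated in few cells, as the 1% of cells with most *Prss34* UMIs held 59.3% of them in WT and 82.5% in *Tet2* KO GMP. Within *Cebpe*-only cells the list median was 0.15, but it was -1.48 within *Ly86*-only cells and -1.34 within cells with neither. In summed RNA of a library, fewer cells of a type and less RNA per cell cannot be told apart. Of the 6 markers, 0 in the Lin-/CD11b+ sort were at least 1.5-fold apart, where 3.12% of all genes were higher and 1.14% lower.

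Genes of MHC class II, which present peptides to T cells, were lower in the summed counts of *Tet2* KO GMP, and the difference rested on few cells of each library. *H2-Aa* was at 42.5 CPM in WT and 20.4 CPM in *Tet2* KO GMP (-1.06, -1.19 to -0.92), *H2-Eb1* at 29.7 and 14.1 CPM (-1.08), *Cd74*, the invariant chain, at 89.0 and 44.6 CPM (-0.995) and *H2-Ab1* at 65.5 and 43.4 CPM (-0.59). They were the 4 of 7 tested genes of the list that were at least 1.5-fold apart, all lower, against 1.69% of all genes. *H2-DMa* (-0.21) and *H2-DMb1* (0.09) were not past that limit. At 5000 UMIs, 9 WT cells (0.72%) and 9 *Tet2* KO cells (0.33%) held 10 or more *H2-Aa* UMIs, and 98.3% and 98.6% of cells held none. The 1% of cells with most UMIs held 97.3% of *H2-Aa* UMIs in WT and 93.6% in *Tet2* KO GMP. Conventional dendritic cell markers summed to 44.6 and 35.3 CPM and B-cell markers to 152 and 152 CPM in the same libraries. Without the cells that carried at least 2 markers of another cell type the list median was 0.12. The sign then turned for *Cd74* (1.20), *H2-Ab1* and *H2-Eb1*, but not for *H2-Aa*. As few cells held most of this RNA, these ratios can rest on few UMIs. That limit left out 790 of 1258 WT and 1452 of 2719 *Tet2* KO cells. Within *Cebpe*-only cells, where only 4 genes of the list passed the level filter, the list median was 0.084. It was -0.95 within *Ly86*-only cells and -0.40 within cells with neither. In the Lin-/CD11b+ sort *H2-Aa* (1.47), *H2-Eb1* (1.56), *Cd74* (0.98) and *H2-Ab1* (1.53) were higher in *Tet2* KO.

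The promoters of *H2-Aa* and *H2-Eb1* are shown because the ratios of these genes had opposite signs in the 2 sorts. The Y box of MHC class II promoters, searched as CTGATTGG on both strands, is in capitals. *H2-Aa* is at chr17:34287774-34288073 on the minus strand and *H2-Eb1* at chr17:34305617-34305916 on the plus strand of GRCm38.p6 (RefSeq).
H2-Aa: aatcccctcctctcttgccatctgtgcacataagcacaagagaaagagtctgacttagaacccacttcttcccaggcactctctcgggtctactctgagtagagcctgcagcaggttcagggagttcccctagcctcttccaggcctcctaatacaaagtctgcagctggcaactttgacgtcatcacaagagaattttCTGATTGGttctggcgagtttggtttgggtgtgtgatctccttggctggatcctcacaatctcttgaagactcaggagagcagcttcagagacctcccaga
H2-Eb1: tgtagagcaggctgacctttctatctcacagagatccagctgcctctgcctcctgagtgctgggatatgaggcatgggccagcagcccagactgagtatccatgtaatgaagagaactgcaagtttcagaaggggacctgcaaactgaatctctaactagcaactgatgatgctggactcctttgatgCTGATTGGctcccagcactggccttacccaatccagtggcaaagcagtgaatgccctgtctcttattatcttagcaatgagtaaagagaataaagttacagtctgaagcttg
The match begins 51 bases before the start in *H2-Aa* and 62 bases before it in *H2-Eb1*. It was present in 3 of the 7 listed genes with a promoter in the table, the third being *H2-Oa*, and in 4.1% of all promoters. The first is a count of genes and the second a share of promoters, of which a gene can have several.

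S100 genes encode small calcium-binding proteins and lie together on chromosome 3. Of 8 tested genes 3 were at least 1.5-fold higher in *Tet2* KO GMP (0.736% of all genes), 5 lay between and 0 were lower by that fold, with a median of 0.42. *S100a8* (90668978 to 90670035, plus strand), a subunit of the antimicrobial protein calprotectin, was at 201 CPM in WT and 589 CPM in *Tet2* KO GMP, a log2 ratio of 1.55 (1.51 to 1.60). It was detected in 16.7% and 37.2% of cells at 5000 UMIs, the largest difference upwards among all genes tested, and cells with at least 10 *S100a8* UMIs made up 2.31% and 8.13%. *S100a4* (90603771 to 90606045, plus strand) was at 30.8 and 58.4 CPM (0.93), *S100a11* (93520488 to 93526287, plus strand) at 524 and 804 CPM (0.62) and *S100a6*, just under the limit, at 72.5 and 108 CPM (0.57).

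*S100a9*, the partner of *S100a8* in calprotectin, was lower in the summed counts of *Tet2* KO GMP, at 54.1 and 41.5 CPM (-0.38, -0.49 to -0.28). That sum was decided by very few WT cells. The 1% of cells with most UMIs held 84.7% of *S100a9* UMIs in WT, and a single WT cell held 1406 *S100a8* and 790 *S100a9* UMIs of 5000. *Camp* and *Ngp*, which encode proteins of secondary granules, were as concentrated in few WT cells, at 17.6 CPM in WT and 0.40 CPM in *Tet2* KO GMP (-5.46) and at 11.1 and 0.56 CPM (-4.30), with a UMI in 0.79% and 0.26% of cells for each. Without the 3 WT and 2 *Tet2* KO cells that carried at least 2 of *Camp*, *Ngp* and *Ltf*, an exclusion made once the values were known, the ratio of *S100a9* was 1.35, that of *S100a8* 2.13, that of *Camp* -1.16 and that of *Ngp* -0.34.

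Among other granule genes, *Chil3*, a chitinase-like lectin of neutrophil and monocyte precursors, was at 8.96 CPM in WT and 35.8 CPM in *Tet2* KO GMP (2.00, 1.79 to 2.22), with detection in 2.07% and 6.18% of cells. *Lcn2*, which binds siderophores, was at 26.6 and 36.8 CPM (0.47). Primary granule genes were at the same high level in both libraries, with a median of 0.02 over 8 genes. *Mpo* was at 5059 and 5121 CPM (0.02), *Prtn3* at 5370 and 5561 CPM (0.05) and *Elane* at 6753 and 7538 CPM (0.16). The exception was *Ctsc*, the protease that activates these granule enzymes, at 64.8 and 103 CPM (0.68, 0.59 to 0.76), detected in 25.7% and 33.2% of cells.

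**Figure D3:**
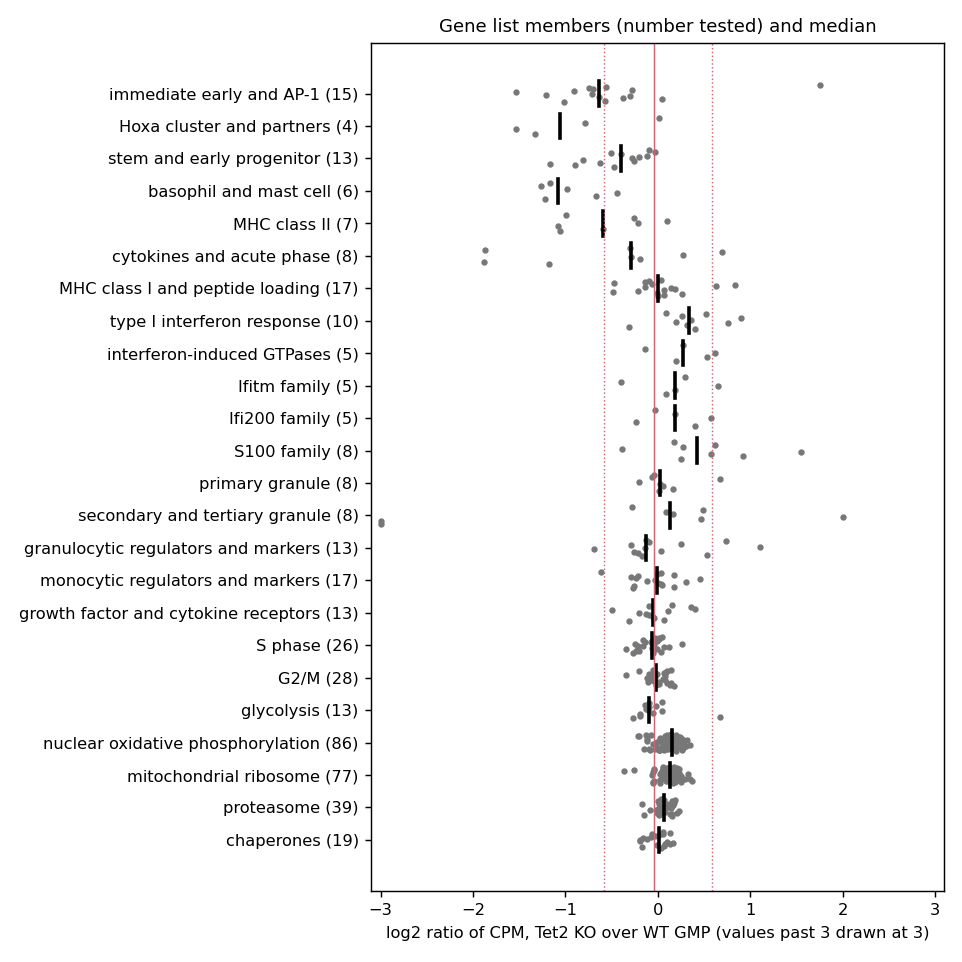
CPM of *Tet2* KO GMP over that of WT GMP as a log2 ratio (x axis), for the tested members of gene lists (points; number tested in brackets) with the median of each list (black bar). Dotted lines mark 1.5-fold and the solid line the median of all genes at -0.04, and the values of *Camp* and *Ngp* past the left end are drawn at the edge.

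Among interferon-induced genes, 2 of 10 tested genes of the type I response, 1 of 5 GTPases, 1 of 5 Ifitm genes and 0 of 5 Ifi200 genes passed the limit. Each gene that passed was higher in *Tet2* KO GMP, as were 0.736% of all tested genes. Of the 10 tested genes of the type I interferon response 9 had a log2 ratio above 0. Their median was 0.34, or 0.10 within cells with neither *Ly86* nor *Cebpe*, and the median of all genes was -0.04. *Zbp1*, a sensor of Z-form nucleic acids, was at 3.93 CPM in WT and 7.31 CPM in *Tet2* KO GMP (0.89, 0.55 to 1.25). *Isg15* was at 5.94 and 7.87 CPM (0.41), while *Oas1a* was at 15.4 and 12.5 CPM (-0.31). Of the Ifitm family, antiviral membrane proteins, *Ifitm3* was at 351 and 551 CPM (0.65, 0.61 to 0.68) and was detected in 67.2% and 77.8% of cells, *Ifitm2* was at 771 and 874 CPM (0.18) *Ifitm1* at 302 and 320 CPM (0.08), and *Ifitm6* had a ratio of -0.40. *Gbp2*, an interferon-induced GTPase, was at 4.02 and 6.16 CPM (0.62, 0.27 to 0.97). In the Lin-/CD11b+ sort 9 of 18 tested genes of the type I response were at least 1.5-fold higher in *Tet2* KO, against 3.12% of all genes there. Their median was 0.61.

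MHC class I genes split by locus. The classical genes *H2-K1* (545 and 547 CPM, 0.01) and *H2-D1* (866 and 903 CPM, 0.06) were at equal levels. The nonclassical genes *H2-Q7* and *H2-Q6*, neighbours on chromosome 17 that are similar enough in sequence to share reads, were at 67.8 and 121 CPM (0.83, 0.75 to 0.92) and at 23.9 and 36.8 CPM (0.62, 0.48 to 0.77). *H2-Q7* was detected in 25.1% of WT and 40.4% of *Tet2* KO cells. The transporter subunit *Tap2* was at 65.4 and 46.7 CPM (-0.49), and the median of the 17 tested genes was 0.01.

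The promoters of *Ifitm3* and *Gbp2* are shown as those members of the interferon lists above the limit that held a motif like the interferon-stimulated response element, GAAA followed after any 2 bases by GAAA, given in capitals and searched on both strands. *Ifitm3* is at chr7:141010695-141010994 on the minus strand and *Gbp2* at chr3:142620413-142620712 on the plus strand of GRCm38.p6 (RefSeq).
Ifitm3: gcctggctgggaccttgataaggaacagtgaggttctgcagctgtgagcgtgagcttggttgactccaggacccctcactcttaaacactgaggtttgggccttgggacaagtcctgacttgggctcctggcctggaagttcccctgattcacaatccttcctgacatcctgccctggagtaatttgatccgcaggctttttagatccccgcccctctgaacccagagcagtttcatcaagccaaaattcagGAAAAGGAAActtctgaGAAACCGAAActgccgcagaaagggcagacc
Gbp2: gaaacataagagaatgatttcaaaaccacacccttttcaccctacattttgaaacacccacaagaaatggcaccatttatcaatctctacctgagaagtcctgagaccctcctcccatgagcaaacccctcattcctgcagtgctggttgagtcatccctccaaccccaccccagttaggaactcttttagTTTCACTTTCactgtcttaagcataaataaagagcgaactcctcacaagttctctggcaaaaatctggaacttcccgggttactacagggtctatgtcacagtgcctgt
The motif occurs 2 times just after the start of *Ifitm3* and 1 time, on the opposite strand, 59 bases before the start of *Gbp2*. It was present in at least 1 promoter of 25 of 39 genes of the type I, Ifitm and GTPase lists with a promoter in the table. Of all promoters, counted singly and not by gene, 3.44% held it.

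Of 8 tested genes of cytokines and the acute phase 3 were at least 1.5-fold lower in *Tet2* KO GMP, 1 was higher and 4 lay between. The median was -0.29, and over all genes 1.69% were lower and 0.736% higher by that fold. *Ccl4* and *Ccl3*, chemokines of macrophages that lie next to each other on chromosome 11, were at 16.1 CPM in WT and 4.37 CPM in *Tet2* KO GMP (-1.88, -2.14 to -1.62) and at 16.9 and 7.47 CPM (-1.18, -1.40 to -0.96), detected in 5.33% and 1.91% and in 6.20% and 2.76% of cells. *Osm*, a cytokine of the IL-6 family, was at 10.7 and 2.94 CPM (-1.87, -2.19 to -1.56). *Ccl9*, a chemokine of myeloid progenitors in the same cluster on chromosome 11, was widely expressed and at 317 and 207 CPM (-0.62, -0.66 to -0.57), with detection in 66.6% and 55.3% of cells. *Wfdc17*, from the same cluster and linked to the acute phase, was higher in *Tet2* KO, at 8.82 and 14.2 CPM (0.69). *Il1b* had 6 and 4 UMIs in all, so no difference was detectable at this depth. *Ccl4*, *Ccl3* and *Osm* were lower in the Lin-/CD11b+ sort as well, at -1.11, -1.28 and -1.80. Of 13 tested receptors for growth factors and cytokines 0 were at least 1.5-fold apart, with *Ifngr1* at 195 and 169 CPM (-0.21) and *Ifnar2* at 59.5 and 54.3 CPM (-0.13).

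Regulators of the granulocytic and the monocytic branch were at similar levels, with medians of -0.13 over 13 and -0.01 over 17 tested genes. *Cebpe*, a factor of granule formation, was at 105 CPM in WT and 87.3 CPM in *Tet2* KO GMP (-0.26), *Ly86*, a Toll-like receptor partner of monocytic cells, at 133 and 110 CPM (-0.27) and *Irf8*, a factor of the monocytic branch, at 284 and 237 CPM (-0.26). *Klf4*, a monocytic factor, was at 20.9 and 23.7 CPM (0.18), *Spi1*, which encodes PU.1, at 233 and 239 CPM (0.04) and *Cebpa*, which starts the myeloid program, at 24.0 and 21.4 CPM (-0.17). The members at least 1.5-fold apart were *Gfi1*, a repressor required for neutrophils (10.1 against 6.25 CPM, -0.69), *Fcnb*, the lectin ficolin B (12.2 against 26.2 CPM, 1.10), *Clec5a*, a myeloid lectin receptor (29.8 against 49.6 CPM, 0.73), and *Ccl9*. *Ly6c2*, a surface antigen of monocytes and their precursors, was at 1844 and 2532 CPM (0.46) and was detected in 81.2% and 91.2% of cells. *Cybb*, the catalytic subunit of the NADPH oxidase, was the 1 of 6 tested oxidase genes past the limit, at 26.5 and 42.3 CPM (0.68).

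By UMIs of *Ly86* and *Cebpe* at 5000 UMIs per cell, *Ly86* alone was detected in 33.1% of WT cells (30.5% to 35.8%) and 27.8% of *Tet2* KO cells (26.1% to 29.5%), 26.3% (23.9% to 28.8%) and 24.3% (22.7% to 25.9%) had *Cebpe* only, and 37.6% (34.9% to 40.3%) and 44.0% (42.1% to 45.8%) had neither (exact binomial intervals). Cells with both were 2.94% and 4.01%, with overlapping intervals (2.08% to 4.03% and 3.30% to 4.82%). The expected shares over all possible thinnings were 3.58% and 4.01% for both, 32.0% and 27.6% for *Ly86* only and 38.7% and 44.0% for neither. These are classes of detection at a fixed depth, not cell types, and a cell without a UMI may still express the gene. *S100a8* had a log2 ratio of 3.48 in *Ly86*-only cells, 2.19 in *Cebpe*-only cells and 0.46 in cells with neither, and *Irf8* had ratios of -0.45, 0.89 and 0.00, with no test of the difference between classes. Cells with neither held 2286 of the 4599 WT *S100a8* UMIs and 385 of the 402 WT *Camp* UMIs, so the few WT cells rich in *Camp* weigh on the value of that class.

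Of 86 tested nuclear genes of oxidative phosphorylation 72 had a log2 ratio above 0, with a median of 0.15 and 0 genes at least 1.5-fold apart. The median of all genes was -0.04 and their 75th percentile 0.08, and 0.736% were higher and 1.69% lower by that fold. *Cox4i1*, a subunit of cytochrome c oxidase, was at 1414 and 1579 CPM (0.16), and *Cox8a*, another subunit, at 1392 and 1521 CPM (0.13). The median cell held 184 UMIs of this list in WT and 206 in *Tet2* KO GMP of 5000. Genes of the mitochondrial ribosome had a median of 0.13, with 68 of 77 above 0, and *Mrpl33* was at 723 and 884 CPM (0.29). Proteasome subunits had a median of 0.07, with 31 of 39 above 0. The 13 protein genes of the mitochondrial genome had a median of -0.08, on the other side of 0, where the median of all genes (-0.04) also lay. Glycolytic genes had a median of -0.10, with 10 of 13 below 0, the side on which most of all genes lay. *Hk2*, which phosphorylates glucose, was the only one past the limit, at 45.8 and 73.0 CPM (0.67, 0.57 to 0.77). With TMM factors the medians of the mitochondrial genome and of glycolysis were -0.012 and -0.035, and that of all genes was 0.02. The median of nuclear oxidative phosphorylation genes lay between 0.11 and 0.21 under each alternative listed in the closing section that used GMP, and was 0.14 in the Lin-/CD11b+ sort.

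Genes of the cell cycle did not differ between the libraries by 1.5-fold. The medians were -0.06 over 26 genes of S phase and -0.02 over 28 genes of G2/M, and 0 of either list were past the limit. Over all genes 0.736% were higher and 1.69% lower by that fold. A count of 0 in these lists, or in the shorter ones below, is near those shares. *Pcna*, the sliding clamp of DNA replication, was at 205 CPM in WT and 162 CPM in *Tet2* KO GMP (-0.34), and *Hmgb2*, a chromatin protein of dividing cells, at 1729 and 1950 CPM (0.17). Of the Tet and DNA methylation genes 0 of 10 were past the limit, with *Dnmt1*, the maintenance methyltransferase, at 79.8 and 81.9 CPM (0.04), *Tet3* at 13.9 and 13.3 CPM (-0.07) and *Dnmt3b*, a de novo methyltransferase, at 9.09 and 7.00 CPM (-0.38). Of 12 tested drivers of clonal haematopoiesis 0 were past the limit. Of 5 tested Toll-like receptor genes and partners 0 were past it, with *Irak1* at 34.5 and 34.4 CPM, and of 5 tested genes of the Ifi200 family 0 were past it, with a median of 0.18. Translation factors had a median of 0.01 over 59 genes, although *Eef1a1*, an elongation factor, was at 5267 and 3760 CPM (-0.49).

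Several differences were in genes whose reads can be split among near-identical copies, and they are uncertain for that reason. The ribosomal protein copies *Rpl36a-ps1* (18.6 and 35.1 CPM, 0.91), *Rps27rt* (98.0 and 155 CPM, 0.66) and *Gm2000* (65.4 and 104 CPM, 0.68) were higher in *Tet2* KO. The ribosomal protein list as a whole had a median of -0.05 over 85 genes. Its only member past the limit on the lower side was *Rps6ka2*, a kinase that the name pattern of the list takes in and that is no ribosomal protein.

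By shares of cells at 5000 UMIs, 17 genes (0.216%) were detected in at least 10 percentage points more *Tet2* KO than WT cells and 14 (0.178%) in at least 10 points fewer. The largest differences upwards after *S100a8* and *Rsrp1* were those of *H2-Q7*, *Rps27rt* and the lincRNA *AC160336.1* on chromosome 14 (36.0% of WT and 50.5% of *Tet2* KO cells). The largest differences downwards after *Ctse* and *Fos* were those of *Oser1*, a gene that responds to oxidative stress (39.6% of WT and 21% of *Tet2* KO cells), *Gstp1*, a glutathione transferase (55.2% and 36.9%), *Ier2* (58.3% and 41.7%) and *Grcc10* (49.4% and 35.1%). *Phb*, prohibitin, and *Serinc3*, a membrane protein, followed with 58.5% and 46.2% and with 71.1% and 59.4%. Among the 16 genes with the largest differences, no interval of WT overlapped that of *Tet2* KO, and these genes were chosen by that difference.

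**Figure D4:**
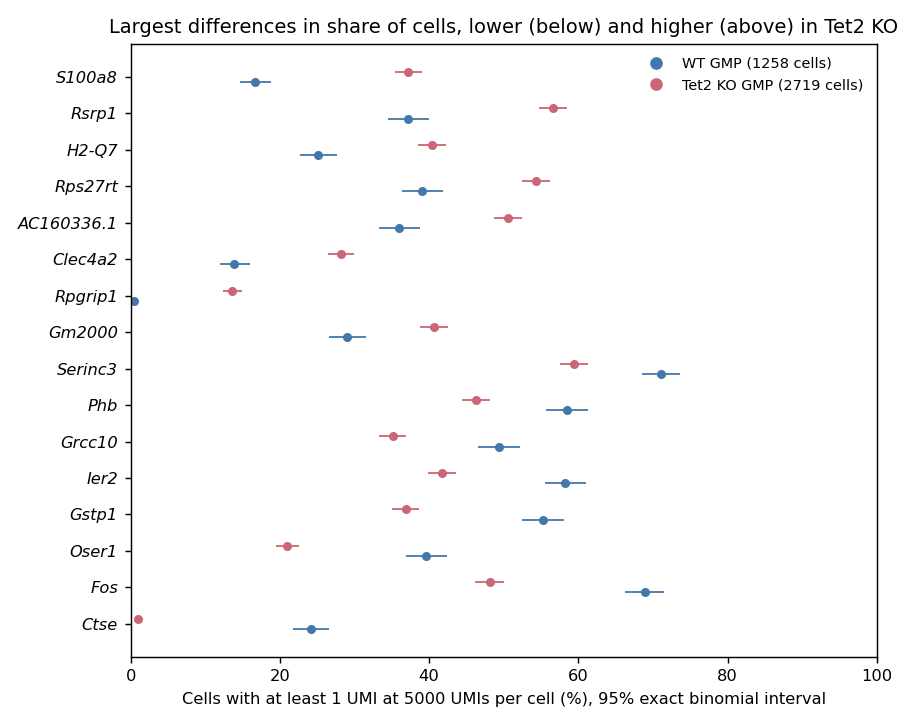
Share of cells with at least 1 UMI after thinning to 5000 UMIs per cell (x axis, %) for the 8 genes with the largest difference upwards and the 8 with the largest downwards in *Tet2* KO GMP, with 95% exact binomial intervals that cover counting error only. *S100a8* was detected in 16.7% of WT and 37.2% of *Tet2* KO cells and *Ctse* in 24.2% and 1.03%.

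Of 64 named genes at least 1.5-fold apart in GMP that also passed the level filter in the Lin-/CD11b+ sort, 55 had a ratio of the same sign there and 29 were past 1.5-fold on the same side. The genes of opposite sign were 4 MHC class II genes, *Ctla2a* (0.35), *Meis1* (0.53), *S100a8* (-0.35), *Tal1* (0.86) and *Txnip* (0.32). In that sort 260 of 8330 genes were at least 1.5-fold higher (3.12%) and 95 at least 1.5-fold lower (1.14%) in *Tet2* KO. Both sorts came from the same mice, so a shared sign does not separate genotype from mouse, and the sorts held different cells.

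**Figure D5:**
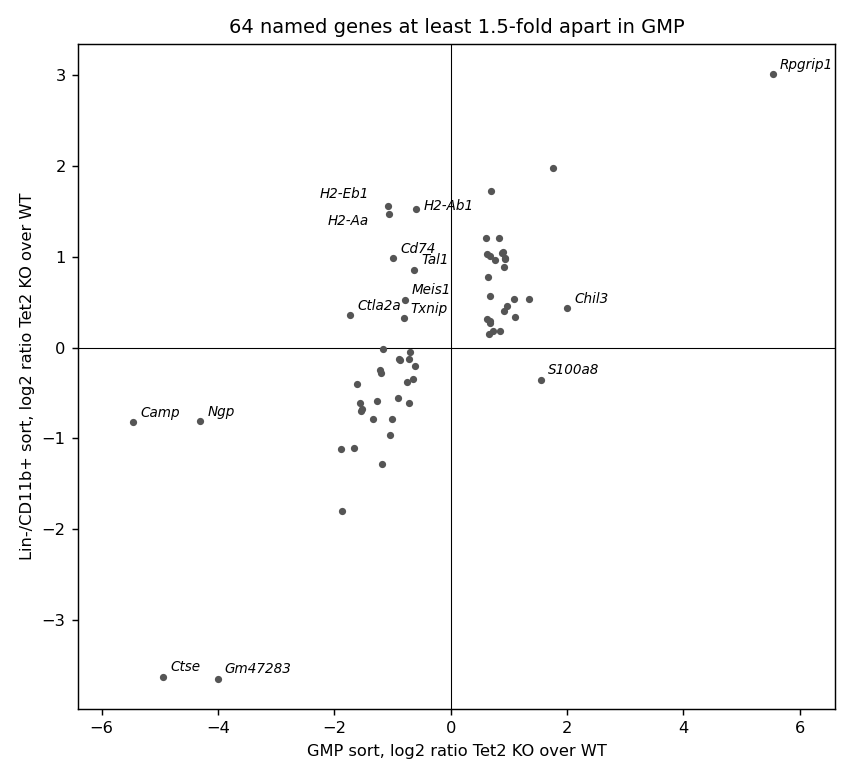
Log2 ratio *Tet2* KO over WT in the GMP sort (x axis) and in the Lin-/CD11b+ sort of the same mice (y axis) for 64 named genes at least 1.5-fold apart in GMP. *Ctse*, *Gm47283* and *Rpgrip1* are extreme on both axes, and the MHC class II genes lie in the upper left, lower in GMP and higher in the other sort.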

How the data were processed

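The authors mapped reads to mm10 and counted UMIs with Cell Ranger 3.1.0 and Seurat, per the submitters' processing notes, and deposited raw counts of UMIs for 18695 genes in 8969 cells and, per cell, the library it belongs to. Reagent kit v2 is named in the protocols, a later version in the design text. Cells were taken as deposited, and the study's limit of 5% mitochondrial UMIs, which 116 WT and 180 *Tet2* KO GMP exceed, was an alternative. No doublet caller was run.

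Intervals (95%) were exact Poisson for summed counts as CPM, exact binomial for shares and exact conditional binomial for ratios, using Python 3.11.15, scipy 1.17.1 and matplotlib 3.10.9. A count of 0 was set to a floor of 3 counts per library in ratios. Depth was 22890469 and 42561110 UMIs, so 3 counts were 0.131 CPM in WT and 0.0705 CPM in *Tet2* KO GMP. Ratios were tested on simulated data. Thinning used random seed 1. Gene positions came from GENCODE M21 on GRCm38, the build of the counts, with 18442 of 18695 gene names matched.

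Named genes were the 12 highest and 12 lowest ratios among genes with a mean of at least 10 CPM, list members at least 1.5-fold apart or else the 2 most abundant, the 8 largest rises and falls in share of cells, and *Tet2*, gate, class, granule and sex-linked genes. List members outside this rule are also given, with their values. The comparison, lists and markers were chosen with earlier results of these data known, and without replicates no p-value was computed. Settings varied were the scaling (TMM of edgeR 4.0.16, run under R 4.3.3), totals without mitochondrial and ribosomal protein genes, other level filters, 2-fold, an offset of 1 CPM, the mean over cells, cells left out, classes of cells, the other sort and other depths for shares. Some genes that the rule names are not reported here.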

Additional observations from a re-analysis of the deposited data

Results flagged for a closer look

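A gene is given here because the *Tet2* KO to WT ratio passed 1.5-fold in opposite directions in the GMP sort and in the Lin-/CD11b+ sort, with 1 library per genotype and sort, so the difference between sorts was not tested. The MHC class II genes were *Cd74* (log2 ratio -0.995 in GMP and 0.98 in the Lin-/CD11b+ sort), *H2-Aa* (-1.06 and 1.47), *H2-Ab1* (-0.59 and 1.53) and *H2-Eb1* (-1.08 and 1.56). In GMP the 1% of cells with most UMIs held 97.3% of WT and 93.6% of *Tet2* KO *H2-Aa* UMIs. *Tal1*, a factor of stem cells and the erythroid line, was at -0.63 in GMP, with 156 and 188 UMIs, and at 0.86 in the Lin-/CD11b+ sort. Over all 7689 genes tested in both sorts, 7 were lower in GMP and higher in the Lin-/CD11b+ sort by at least 1.5-fold, and 0 were higher in GMP and lower there.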

How the results depend on the processing

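The counts of genes at least 1.5-fold higher and lower in *Tet2* KO GMP, 58 and 133, became 70 and 107 with TMM factors. With totals that left out mitochondrial and ribosomal protein genes they became 75 and 219. They became 27 and 41 with a level filter at 20 CPM, 834 and 2043 with no filter beyond 1 UMI in each library, and 13 and 41 at 2-fold. Without the cells that carried 2 markers of another cell type, 790 of 1258 WT and 1452 of 2719 *Tet2* KO cells, there were 97 and 177. Within *Ly86*-only cells there were 110 and 228, within *Cebpe*-only cells 127 and 231, and within cells with neither 91 and 286. In the Lin-/CD11b+ sort 260 genes were higher. Without thinning, 182 genes had a share of cells at least 10 points lower. The shares of WT cells were then 34.4% with *Cebpe* only, 14.9% with both and 15.5% with neither, and those of *Tet2* KO cells 33.5% with *Ly86* only, 33.1% with *Cebpe* only, 16.4% with both and 17.0% with neither. Of the 66 named genes past 1.5-fold, 66 kept their sign and 62 their side of the limit with TMM factors. Of 41 list medians 32 kept their sign with these factors. Without the cells with 2 markers of another type, the sign turned for *Cd74* (1.20), *H2-Ab1* (0.048), *H2-Eb1* (1.33) and the MHC class II median (0.12). Within *Cebpe*-only cells it turned for *Cd74* (0.068), *H2-Aa* (0.26), *H2-Ab1* (0.049), *Klf6* (0.11), *Ngp* (0.92), *Prss34* (0.97), *Wfdc17* (-0.48), the MHC class II median (0.084) and the basophil and mast cell median (0.15), and within *Ly86*-only cells for *Gfi1* (0.24) and *Tal1* (0.46). In the Lin-/CD11b+ sort it turned for *Cd74* (0.98), *Ctla2a* (0.35), *H2-Aa* (1.47), *H2-Ab1* (1.53), *H2-Eb1* (1.56), *Meis1* (0.53), *S100a8* (-0.35), *Tal1* (0.86), *Txnip* (0.32) and the MHC class II median (0.82). The cause was not tested. Leaving out cells with 2 basophil markers or with 2 of *Camp*, *Ngp* and *Ltf* was chosen after seeing the data. No paired analysis was possible because each genotype had 1 library per sort.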
